A study of Dunaliella salina with 18 samples.

Results

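A reciprocal set of transcripts in the halotolerant green alga Dunaliella salina is described here: transcripts that were lower at 24h than at 0h in the arm titled H2L and higher at 24h than at 0h in the arm titled L2H. The members were chosen from the measured values. A transcript entered when its H2L 0h mean plus 1 was at least 2 times its H2L 24h mean plus 1, its L2H 24h mean plus 1 was at least 2 times its L2H 0h mean plus 1, its H2L 0h or L2H 24h mean plus 1 was at least 11, and its mean over 18 libraries was under 1000. The rule found 31 of 43236 transcripts. With the same limits on abundance 447 transcripts met the H2L condition alone or with the other and 162 met the L2H condition, while the rule turned round (up in H2L, down in L2H) found 52. Because the rule used the change from 0h to 24h in each arm, those changes are given as a description and nothing is read from their tests.

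Dunaliella salina has no rigid cell wall, so its cells swell or shrink at once when the salt outside changes. They regain volume by moving ions and then by making or removing glycerol, the compatible solute of this genus. A moved salinity is known to be followed by changes in membrane transport, carbon metabolism and photosynthesis over minutes to days. Reciprocal shifts ask whether transcripts that leave one state in one direction come back in the other. The table carries identifiers of assembled sequences, 0 of which matched the reference gene table of another strain, so no function is given to any member.

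The data are 18 libraries of total RNA from cultures of strain CCAP 19/3, 3 in each of 6 groups: H2L at 0h, 4h and 24h, and L2H at 0h, 4h and 24h. Title and condition label state opposite directions of the salinity change for each arm, so the arms keep their title names and neither is assigned a direction. The labels give no salt concentrations, and they do not say whether libraries of a group came from separate cultures, so the spread behind the p-values may be technical. The values are abundances scaled for transcript length and depth, with totals of 749880 to 842410 per library and unknown read depth, and the tests covered the 34166 transcripts that reached a value of 1 in 3 or more libraries, all 31 members among them. Libraries 1 and 2 of a group were more alike (Pearson's r across transcripts 0.963 to 0.969) than either was to the third (0.945 to 0.962), and their titles carry tags of their own. Library 3 of L2H at 0h and that at 4h were closer to each other (r = 0.967) than to their groups, which touches every L2H result below. The tag at 24h differs from that at 0h and 4h in every title series, so at 24h time and tag cannot be told apart.

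In H2L at 0h 28 of 31 had a mean of at least 10, in L2H at 24h 16 had, and 13 had both. So 15 members entered only through a high H2L start and 3 only through a high L2H end. In those 15 the rule holds L2H low, with L2H means of at most 2.34 at 0h and 7.53 at 24h, while the H2L start is at least 10. On the scale of mean log2(value + 1), the median member stood at 3.99 in H2L at 0h, 3.66 at 4h and 2.34 at 24h, and at 1.72 in L2H at 0h, 2.55 at 4h and 3.40 at 24h. The H2L start was above the L2H start in 29 of 31 members by their means, an order that the rule fixes for those 15. By 24h the order had turned in most of them, and the L2H mean was above the H2L mean in 25.

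**Figure D1:**
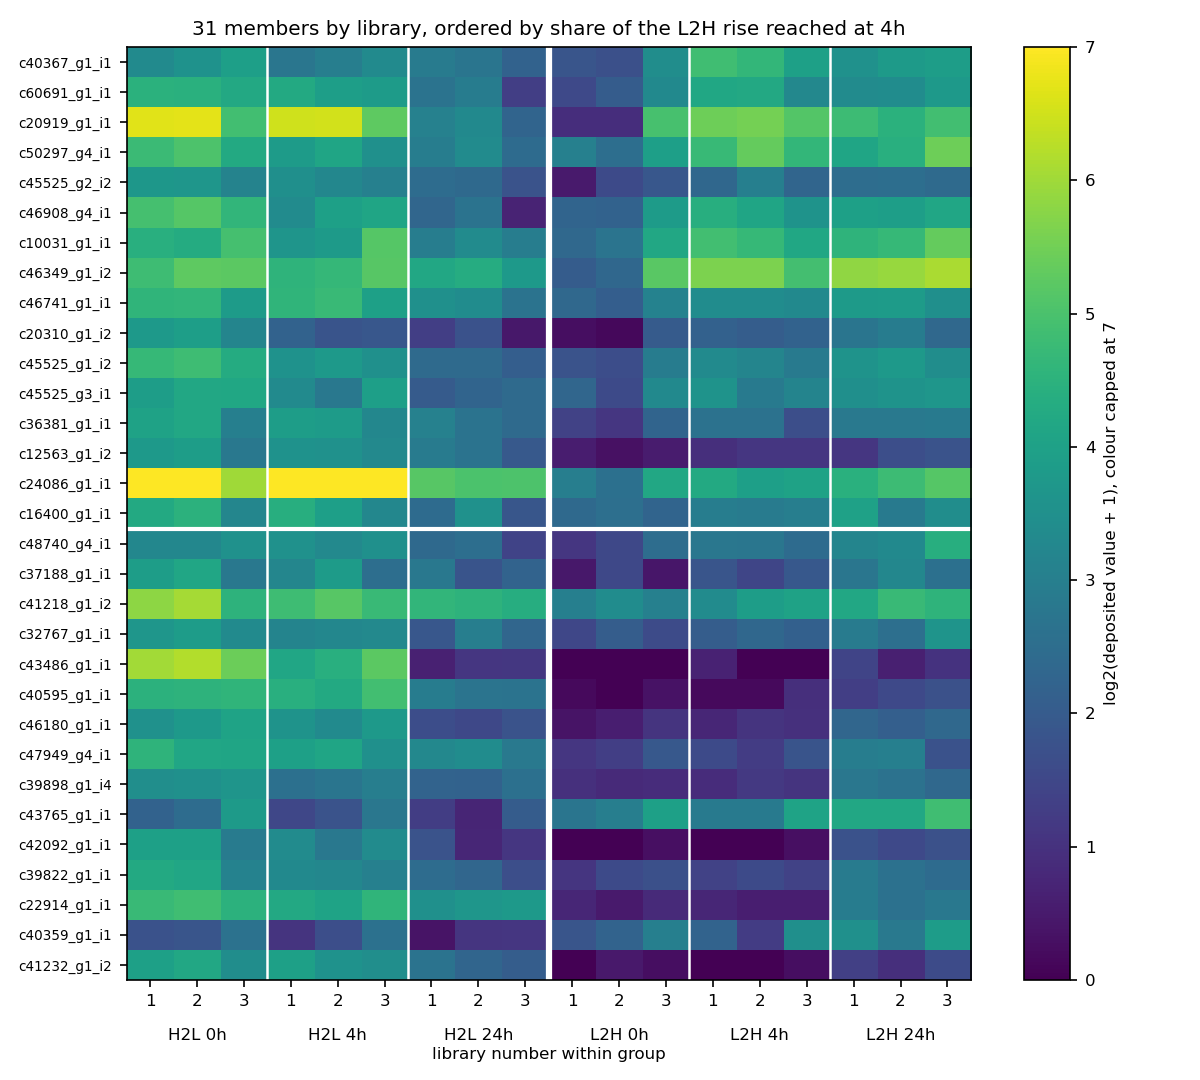
Each row is 1 of the 31 members and each column 1 library, coloured by log2(deposited value + 1), with the 3 H2L groups left of the 3 L2H groups and times in order. Above the white horizontal line lie the 16 members that had made at least 0.5 of their L2H rise by 4h, and in 14 of these the third L2H library at 0h was the highest of its group.

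Some members met the rule widely and others narrowly. The largest value of the smaller of both ratios belonged to c20310_g1_i2, at 3.08. Its H2L libraries gave 12.8, 14.1 and 8.02 at 0h, 3.62, 2.55 and 2.70 at 4h, and 1.47, 2.39 and 0.37 at 24h. Its L2H libraries gave 0.19, 0.10 and 3.01 at 0h, 3.55, 3.16 and 3.6 at 4h, and 5.55, 6.69 and 4.15 at 24h. Neither arm's 24h libraries overlapped its 0h libraries, although the third L2H library at 0h was far above the other two. Next came c42092_g1_i1 (3.01), c46180_g1_i1 (2.95), c50297_g4_i1 (2.79), c10031_g1_i1 (2.74), c24086_g1_i1 (2.66), c37188_g1_i1 (2.60) and c45525_g1_i2 (2.58). In c42092_g1_i1 and c46180_g1_i1 the L2H means were 0.07 and 0.63 at 0h and 2.23 and 3.81 at 24h. The size of these smaller ratios was thus largely set by the value of 1 added to both means. Just inside the limit of 2 stood c40359_g1_i1 and c45525_g3_i1, each at 2.01, and c46349_g1_i2 at 2.0. Just outside stood c48393_g9_i1 and c47949_g3_i2, each at 1.99, and c44324_g1_i1 at 1.98.

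The rule contrasts gave the following counts, printed for description only. With limma, 25 of 31 members were called lower in H2L at 24h than at 0h at an adjusted p under 0.05, where 5.12% of all tested transcripts were. In L2H 17 were called higher at 24h than at 0h, against 0.861% of all tested transcripts, and 15 were called in both arms. With libraries 1 and 2 averaged the counts were 3 in H2L and 0 in L2H (28 and 25 at an unadjusted p under 0.05). Of all 34166 tested transcripts 23 and 0 were then called. Within libraries 1 and 2 alone the counts were 30 and 28, where 4085 and 4759 of all were called. The count of 17 was 3 or 4 without L2H 0h library 1 or 2, and 5, 6 or 7 without L2H 24h library 1, 2 or 3. With a fit of those groups alone it was 0 (30 at an unadjusted p under 0.05), where 0 of all tested transcripts were called. In every one of libraries 1, 2 and 3 taken by number, all 31 members were lower in H2L at 24h than at 0h. In L2H all 31 were higher at 24h in libraries 1 and 2, and 29 were in library 3.

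The H2L fall was mostly late. The share of a member's change from 0h to 24h that was reached at 4h, on the mean log2 scale, had a median of 0.26 with quartiles of 0.10 and 0.39, and it was at least 0.5 in 5 of 31 members. By library the median share was 0.35, 0.36 and 0.04 in libraries 1, 2 and 3, and from the means of libraries 1 and 2 alone 12 members had reached at least 0.5. Limma called 4 members lower at 4h than at 0h (5.52% of all tested transcripts were), 1 higher (6.49% were) and 18 lower at 24h than at 4h (8.83% were). These contrasts share their 0h or 24h libraries with the rule, which favours high values at 0h and low values at 24h. The count of 4 was 2 without the first or second H2L library at 0h and 1 without H2L 4h library 1. It was 13 within libraries 1 and 2 alone, where 10.1% of all tested transcripts were called. When the mean of libraries 1 and 2 stood in for both, limma called 0 lower (4 at an unadjusted p under 0.05), where 0.641% of all were, and 0 higher (1 at an unadjusted p under 0.05), where 0.767% were. The count of 18 was 11 without H2L 24h library 3 and 6 with that mean, where 1.46% of all were.

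The strongest fall belonged to c43486_g1_i1. Its H2L libraries gave 64.5, 72.6 and 42.4 at 0h, 16.7, 20.2 and 36.4 at 4h, and 0.55, 1.14 and 1.2 at 24h. The groups did not overlap between any of these times. Between 4h and 24h it fell by 3.64 on the log2 scale (SE 0.30, limma adjusted p = 1.24e-06). In L2H it was listed at 0 in all 3 libraries at 0h and at 1.72, 0.53 and 1.03 at 24h. The size of its L2H ratio, 2.09, was therefore set by the value of 1 added to both means.

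Another pattern was a rise before the fall. The most abundant member, c24086_g1_i1, gave 173, 153 and 62.6 in H2L at 0h, 293, 236 and 334 at 4h, and 35.2, 31.5 and 32.1 at 24h. All 3 libraries at 4h were above all 3 at 0h, and all 3 at 24h were below both. It was the only member called higher at 4h than at 0h, with a log2 change of 1.26 (SE 0.36, limma adjusted p = 0.0308). That call was lost without H2L 0h library 3 (log2 change 0.81, adjusted p = 0.138) and without H2L 4h library 1, 2 or 3 (0.0877, 0.0512 and 0.0814). Its fall between 4h and 24h, a log2 change of -3.08 (SE 0.36, adjusted p = 4.1e-05), kept its call in all 29 alternatives run.

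Other members with a 4-fold or larger H2L fall differed in how far they had moved at 4h. The lowest shares at 4h were those of c20919_g1_i1 (0.00), c46180_g1_i1 (0.10) and c60691_g1_i1 (0.18). The libraries of c46180_g1_i1 gave 10.7, 12.4 and 15.6 at 0h, 11.1, 9.20 and 12.5 at 4h, and 2.15, 1.86 and 2.49 at 24h. Its 4h libraries overlapped those at 0h and lay far above those at 24h. The highest shares belonged to c20310_g1_i2 (0.67), c45525_g1_i2 (0.43) and c46908_g4_i1 (0.36). For c20310_g1_i2 the change between 0h and 4h was -1.65 on the log2 scale (SE 0.41, limma adjusted p = 0.0142), a call lost when the first or second H2L library at 0h or the second at 4h was left out (adjusted p = 0.0511, 0.0578 and 0.053).

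The L2H rise was spread over both intervals. The share reached at 4h had a median of 0.53 with quartiles of 0.12 and 0.76, ranging between -0.16 and 1.52. It was at least 0.5 in 16 members, of which 6 had passed their 24h level by 4h. The L2H share exceeded the H2L share in 21 of 31 members, and only 2 members had reached at least 0.5 of their change by 4h in both arms. Limma called 5 members higher at 4h than at 0h (1.17% of all tested transcripts were) and 7 higher at 24h than at 4h (1.88% were). With the library number as a block, limma called 0 members higher at 4h than at 0h (18 at an unadjusted p under 0.05). The 5 were c20919_g1_i1, c46349_g1_i2, c40367_g1_i1, c50297_g4_i1 and c45525_g2_i2, with log2 changes between 1.23 and 3.13 and limma adjusted p between 0.0384 and 0.0494, and their calls were lost in 16 to 21 of 29 alternatives.

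**Figure D2:**
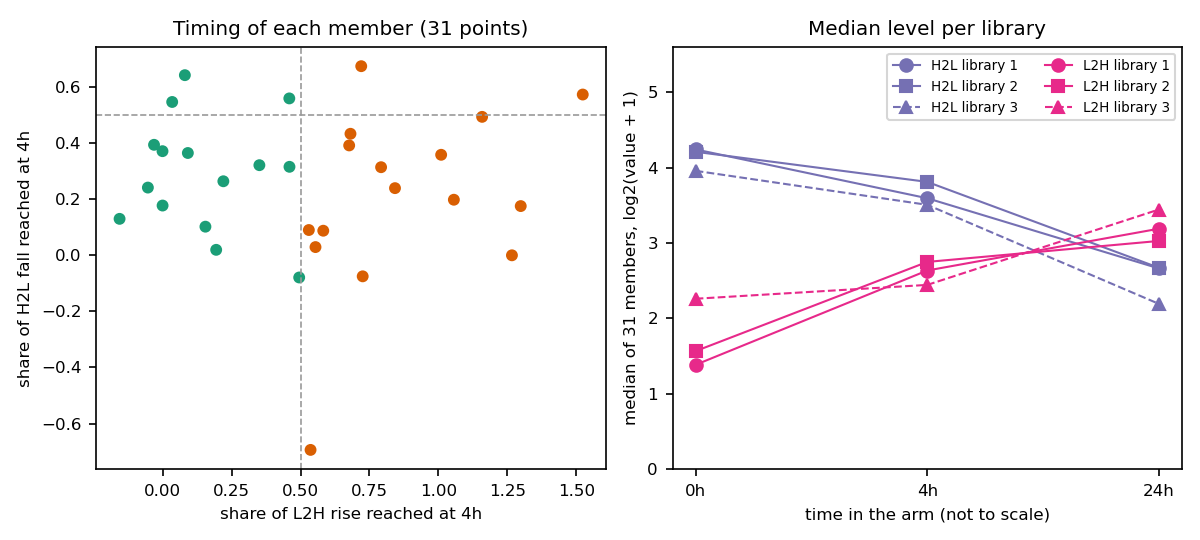
On the left each point is 1 member, placed by the share of its L2H rise (horizontal) and of its H2L fall (vertical) reached at 4h, and 16 points lie right of 0.5 and 5 above 0.5. On the right the median of the 31 members is drawn for each library against time, with the third libraries dashed. The third L2H library stood at 2.26 at 0h and 2.44 at 4h, whereas libraries 1 and 2 stood at 1.38 and 1.57 at 0h and at 2.63 and 2.75 at 4h.

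This early rise was carried by libraries 1 and 2. Between 0h and 4h the median member rose by 1.06 in library 1 and 0.79 in library 2 on the log2 scale, and by 0.00 in library 3, where 15 of 31 were higher at 4h. By 24h the median changes were 1.74, 1.73 and 0.97 in libraries 1, 2 and 3. At 0h the third L2H library was the highest of its group in 23 of 31 members (74.2%), against 37.6% of all tested transcripts, and it was at least 2-fold above the mean of the others on the log2 scale in 14 (45.2%), against 3.65% of all. The part of that library in the timing was not tested. Beside the 5 members called higher at 4h, limma called 0 without any 1 of libraries 1 and 2 of the 6 groups (10 to 17 at an unadjusted p under 0.05), of which the H2L and L2H 24h libraries enter only through the pooled spread, and 2 without L2H 24h library 3. The count was 14 without L2H 0h library 3, 8 without L2H 4h library 3 and 15 without both, when 7.81% of all tested transcripts were called higher. It was also 15 within libraries 1 and 2 alone, when 14.3% of all were. With the mean of libraries 1 and 2 in place of both it was 0 (7 members had an unadjusted p under 0.05), as it was for all tested transcripts (0%).

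The L2H libraries were also read within the 2 timing classes. Among the 16 members that had made at least 0.5 of the rise by 4h, the median change between 0h and 4h was 1.75 and 1.73 in libraries 1 and 2 and 0.09 in the third on the log2 scale, and by 24h the third had risen by 0.52. Among the other 15 the median changes by 24h were 1.77, 1.52 and 1.40 in libraries 1, 2 and 3. The third L2H library at 0h exceeded the mean of the others by a median of 1.40 in the early risers and 0.25 in the late risers. These classes were made from the values themselves, and no test was run between them.

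Among the early risers, libraries 1 and 2 moved within 4h and the third often started high. The transcript c20919_g1_i1 gave 0.87, 0.88 and 30.1 in L2H at 0h, 43.2, 45.8 and 34.1 at 4h, and 27.1, 21.3 and 28.6 at 24h. Libraries 1 and 2 were near 0 at 0h and highest at 4h, whereas the third stayed between 28.6 and 34.1 at all 3 times. The transcript c46349_g1_i2 gave 3.08, 4.08 and 35.7 at 0h, 48.5, 47.9 and 29.3 at 4h, and 56.5, 60.1 and 68.2 at 24h, so here the third library rose only after 4h. The transcript c40367_g1_i1 gave 2.58, 2.25 and 9.89 at 0h, 27.7, 24.0 and 14.8 at 4h, and 10.75, 12.95 and 13.8 at 24h. It had the largest share at 4h (1.52), with libraries 1 and 2 above their own 24h level.

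The median late riser had moved by 0.36, 0.02 and 0.00 on the log2 scale between 0h and 4h in L2H libraries 1, 2 and 3. The transcript c22914_g1_i1 gave 0.70, 0.41 and 0.79 in L2H at 0h, 0.69, 0.49 and 0.49 at 4h, and 6.62, 5.10 and 6.04 at 24h. The 24h libraries lay far above the rest, and the 0h and 4h libraries overlapped. Between 4h and 24h it rose by 2.15 on the log2 scale (SE 0.17, limma adjusted p = 1.7e-05), a call kept in all 29 alternatives. It was one of 4 members at least 4-fold higher in L2H at 24h than at 0h on the mean log2 scale, with a share at 4h of -0.03, beside 0.46 for c37188_g1_i1, 0.79 for c46349_g1_i2 and 1.27 for c20919_g1_i1. The count of 7 members called higher at 24h than at 4h was 3 without L2H 4h library 1 or 2, 4 without L2H 24h library 1 and 1 with the mean of libraries 1 and 2 in place of both (0.00293% of all tested transcripts). Within libraries 1 and 2 alone it was 12, where 9.52% of all were called. In that setting 3 members were called lower at 24h than at 4h, where 2044 of 34166 transcripts were. Over all libraries 0 members were called lower, where 253 of 34166 were.

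**Figure D3:**
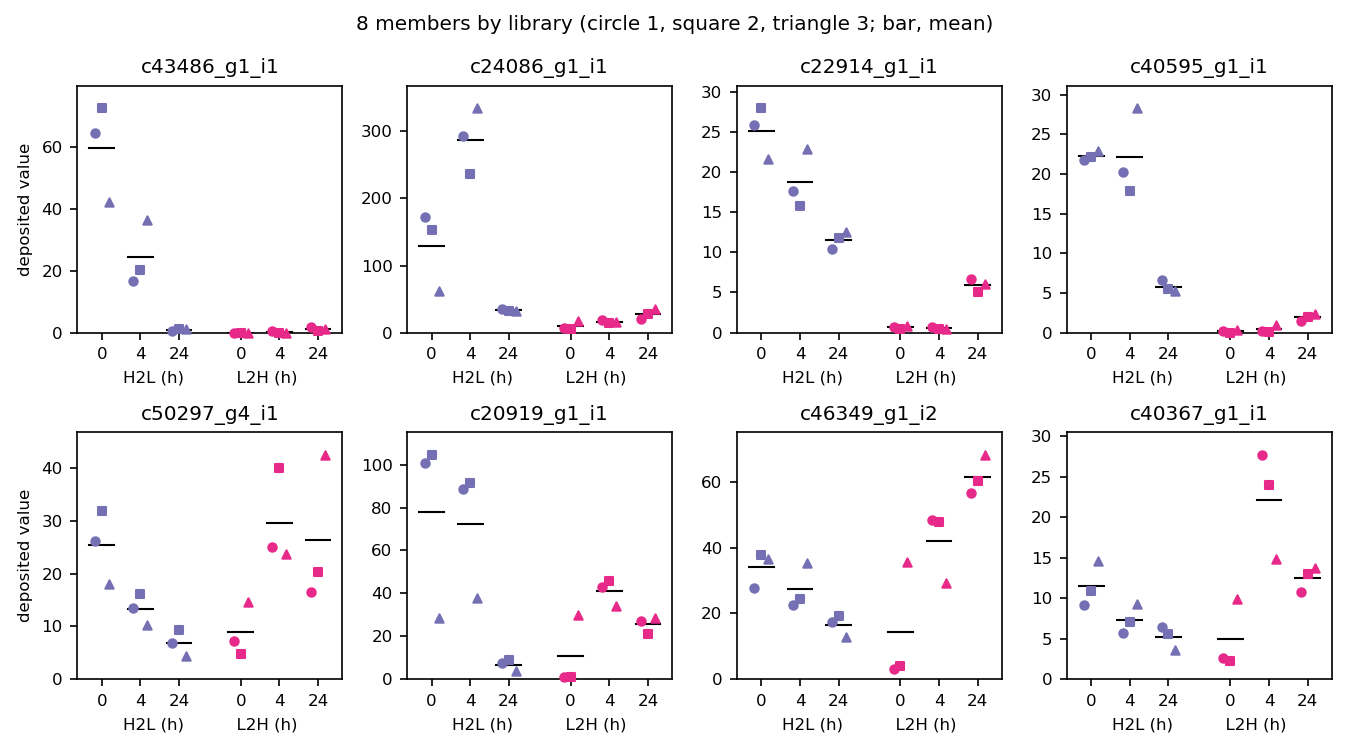
Deposited values of 8 members in every library, with H2L left of L2H, times in hours from left to right, 1 symbol per library number and a bar at the group mean (n = 3). In the upper panels H2L stays above L2H at 4h, and in the lower panels libraries 1 and 2 of L2H rose between 0h and 4h, while the third L2H library (triangle) was already well above them at 0h.

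The 4h libraries took part in choosing the members only through the limit on the overall mean, but the rule still leans the comparison of the arms at 4h, because 15 members entered through a high H2L arm with L2H held low. The shares over all tested transcripts carry no such choice, so the counts are a description. Limma called 16 of 31 members higher in H2L at 4h than in L2H at 4h, where 14.2% of all tested transcripts were, and 2 lower, where 11.1% were. The libraries of the arms did not overlap in 20 members with H2L higher (21% of all tested transcripts) and in 3 with H2L lower (16.9%). The median member was 1.05 higher in H2L on the log2 scale, where the median over all tested transcripts was 0.07. The count of 16 was 14 to 17 when any 1 library was left out, and 11 with the mean of libraries 1 and 2 in place of both, where 3.91% of all tested transcripts were called. The count of 2 was 0 with that mean (2 at an unadjusted p under 0.05), where 2.81% of all were, 6 within libraries 1 and 2 alone, where 15.6% were, and 1 without library 1 of H2L at 0h, library 1 of H2L at 24h, or the first or second library of either arm at 4h. Of the 16, 12 were late risers in L2H and 4 early risers. By the way they met the floor, 13 of the 16 were among the 15 members that entered through H2L 0h only. Among the 13 members that met it at both H2L 0h and L2H 24h, 3 were called higher in H2L and 2 lower, and the median log2 difference was 0.16.

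The largest differences at 4h belonged to 4 members, all of which except c24086_g1_i1 were near 0 in L2H at that time. The transcript c43486_g1_i1 gave 16.7, 20.2 and 36.4 in H2L at 4h, against 0.60, 0.00 and 0.00 in L2H at 4h, a log2 difference of 4.36 (SE 0.30, limma adjusted p = 1.14e-07). The transcript c24086_g1_i1 gave 293, 236 and 334 in H2L, against 18.2, 14.4 and 15.5 in L2H, a log2 difference of 4.08 (SE 0.36). The transcript c40595_g1_i1 gave 20.2, 17.9 and 28.3 in H2L, against 0.14, 0.13 and 0.94 in L2H (log2 difference 4.07, SE 0.22). The transcript c22914_g1_i1 gave 17.6, 15.8 and 22.8 in H2L, against 0.69, 0.49 and 0.49 in L2H (log2 difference 3.65, SE 0.17). The arms did not overlap in any of these 4, and their calls were kept in all 29 alternatives.

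In the opposite direction stood c40367_g1_i1 and c50297_g4_i1, both early risers. The transcript c40367_g1_i1 gave 5.75, 7.03 and 9.29 in H2L at 4h, against 27.7, 24.0 and 14.8 in L2H at 4h, a log2 difference of -1.45 (SE 0.36, limma adjusted p = 0.00766). That call was lost with the mean of libraries 1 and 2 in place of both (adjusted p = 0.129). The transcript c50297_g4_i1 gave 13.4, 16.2 and 10.3 in H2L, against 25.1, 40.05 and 23.8 in L2H, a log2 difference of -1.08 (SE 0.37, adjusted p = 0.0417). Its call was lost in 11 of 29 alternatives, with adjusted p = 0.0886, 0.0524 and 0.124 without H2L 4h library 1, 2 or 3, 0.0675 and 0.165 without the first or second of L2H at 4h, and 0.0505 and 0.0507 without library 1 of H2L 0h or 24h. In both transcripts every L2H library was above every H2L library.

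The first steps of the arms were also set against each other, as the H2L change between 0h and 4h minus the L2H change. This difference was below 0 in 30 of 31 members, with a median of -0.86 on the log2 scale (0.05 over all tested transcripts), and limma called 10 members, all below 0, where 4.89% of all tested transcripts were called below 0 and 5.31% above it. For members above 0 the count was also 0 at an unadjusted p under 0.05. This difference shares the 0h libraries with the rule. The rule asked for a fall in H2L and a rise in L2H, so it favours values below 0, and nothing is read from their sign. The most negative was that of c20310_g1_i2, at -3.00 (SE 0.57, adjusted p = 0.00454). All its H2L libraries at 4h were below those at 0h, and all its L2H libraries at 4h above those at 0h. The count of 10 was 4 or 5 without library 1 or 2 of any group compared (H2L 0h, H2L 4h, L2H 0h or L2H 4h), and 0 with the mean of libraries 1 and 2 in place of both (9 had an unadjusted p under 0.05), where 0.00585% of all were called. Within libraries 1 and 2 alone it was 18, where 13% of all were.

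How closely each arm's end met the other arm's start was read from the means. The H2L end stood above the L2H start by a median of 0.71 on the log2 scale, and the L2H end stood below the H2L start by a median difference of -0.95, where the medians over all tested transcripts were -0.02 and 0.01. Without regard to sign the median gaps were 0.92 and 0.97, against 0.23 and 0.29 over all tested transcripts, many of which changed little anywhere. These gaps are not free of the rule, since its floor used the means of H2L at 0h and L2H at 24h. The gap was under 2-fold in 18 members for the H2L end, in 17 for the L2H end and in 13 for both. In 21 members the H2L end was above the L2H start and the L2H end below the H2L start. All 15 members that entered through H2L 0h only were among them, and in these the floor fixes the order of the L2H end and the H2L start. The other 6 were among the 13 members that met the floor both ways, whose median gaps were 0.20 for the H2L end and -0.64 for the L2H end.

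Limma called 9 members higher in H2L at 24h than in L2H at 0h, where 0.828% of all tested transcripts were, and 0 lower (2 at an unadjusted p under 0.05), where 0.779% were. It called 12 members lower in L2H at 24h than in H2L at 0h, where 3.11% of all tested transcripts were, and 0 higher (2 at an unadjusted p under 0.05), where 3.97% were. Both gaps were called in 8 members and neither in 18, which does not show that those 18 met. Of the 12, 10 entered through H2L 0h only, so their direction was set by the rule. Of the 9, 7 entered that way, with the L2H start held low. Among the 13 members that met the floor both ways 2 were called at each end. The counts are therefore a description, and nothing is read from their distance to the shares over all tested transcripts. The count of 9 was 5 without H2L 24h library 1 or 2, 2 with the mean of libraries 1 and 2 in place of both (0.0146% of all tested transcripts) and 22 within those libraries alone (7.7% of all). The count of 12 was 4 with that mean (0.19% of all) and 21 within those libraries alone (10.6% of all).

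**Figure D4:**
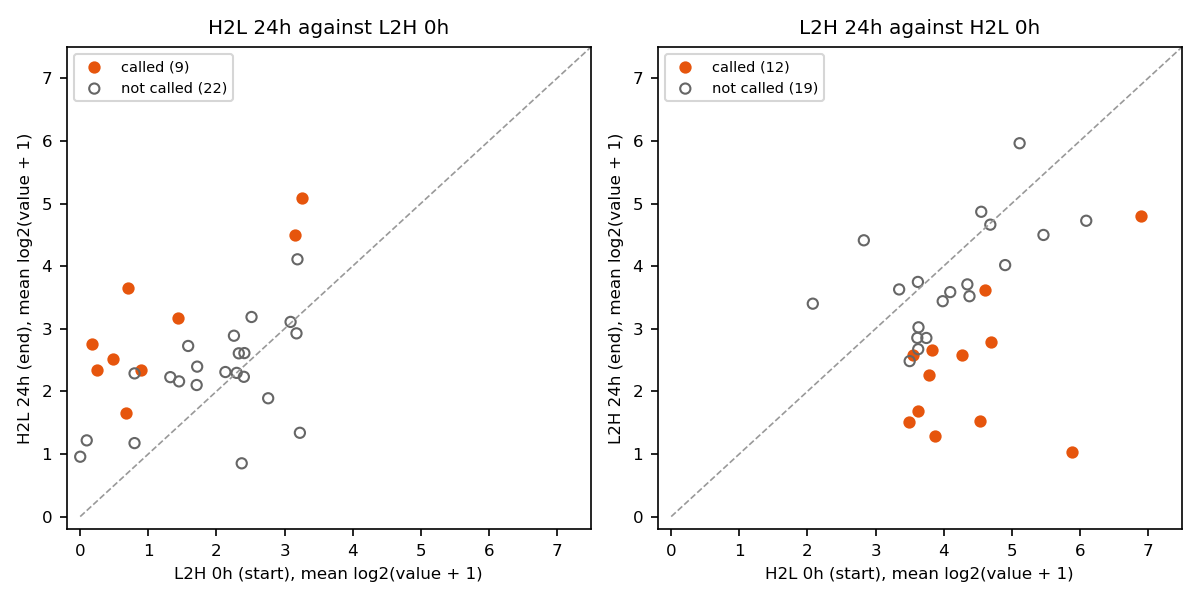
Each point is 1 member. The vertical axis gives the mean log2(value + 1) at an arm's end (24h), the horizontal axis that at the other arm's start (0h), and the dashed line marks equal levels. Of the points, 9 on the left and 12 on the right are called by limma at an adjusted p under 0.05 (filled). The called points on the left lie above the line and those on the right below it.

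The widest gaps named here belonged to members with low L2H values. In c22914_g1_i1 the H2L libraries at 24h gave 10.45, 11.8 and 12.5, against 0.70, 0.41 and 0.79 in L2H at 0h, a log2 difference of 2.95 (SE 0.17, limma adjusted p = 1.21e-07). In c40595_g1_i1 they gave 6.65, 5.45 and 5.30, against 0.14, 0.00 and 0.27 (log2 difference 2.58), and in c41232_g1_i2 they gave 5.37, 3.86 and 3.17, against 0.00, 0.40 and 0.19 (log2 difference 2.09). At the other end, c43486_g1_i1 gave 1.72, 0.53 and 1.03 in L2H at 24h, against 64.5, 72.6 and 42.4 in H2L at 0h, a log2 difference of -4.87 (SE 0.30, adjusted p = 7.46e-08). For c40595_g1_i1 that difference was -3.01 and for c41232_g1_i2 it was -2.59. Of these 6 calls only that of c41232_g1_i2 at the H2L end was lost in any alternative, with the mean of libraries 1 and 2 in place of both (adjusted p = 0.0937) and with a fit of those groups alone (0.05, to 3 digits).

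A few members came close at both ends by their mean log2 values. In c10031_g1_i1 the H2L libraries at 24h gave 6.82, 9.45 and 6.86, against 4.19, 5.52 and 17.2 in L2H at 0h, and the L2H libraries at 24h gave 22.7, 24.8 and 39.8, against 20.5, 18.8 and 29.4 in H2L at 0h. The groups overlapped in both comparisons, and the log2 differences were 0.02 and 0.32. At the H2L end the overlap came only through the third L2H library at 0h. That library lay above all H2L libraries at 24h, whereas L2H libraries 1 and 2 lay below all of them. In c50297_g4_i1 the log2 differences were -0.25 and -0.02, but the libraries did not agree. Its L2H libraries at 24h gave 16.5, 20.4 and 42.5, against 26.2, 31.9 and 18.1 in H2L at 0h. There L2H libraries 1 and 2 lay below H2L libraries 1 and 2, and the third L2H library lay above all of H2L. At the H2L end the third L2H library at 0h (14.5) again lay above all H2L libraries at 24h (6.84, 9.30 and 4.44). The transcripts c43765_g1_i1 and c40359_g1_i1, the first named after its values were seen, had gaps opposite in sign to the medians. The H2L end lay below the L2H start (log2 difference -1.89 and -1.52) and the L2H end above the H2L start (1.58 and 1.32). Both transcripts entered through L2H 24h only, so the floor fixes the order of the L2H end and the H2L start in them. Limma called neither transcript in either comparison.

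The gap differed between library numbers. The titles of libraries 1 and 2 carry the same tags in both arms, whereas the third libraries carry different tags in each, so number 3 pairs nothing across arms. With libraries of the same number set against each other, the median H2L end minus L2H start was 1.28 and 1.0 in libraries 1 and 2 and -0.10 in library 3, and the median L2H end minus H2L start was -1.09, -1.14 and -0.48. At 0h the third H2L library was the lowest of its group in 21 of 31 members (67.7%), against 38.4% of all tested transcripts.

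The choice of members leaned on the same libraries. Applied to libraries 1 and 2 alone, the rule found 84 transcripts, 24 of them among the 31. In the third libraries, which that choice did not use, 82 of the 84 were lower in H2L at 24h than at 0h (97.6%, against 49.9% of all tested transcripts), but 34 were higher in L2H at 24h than at 0h (40.5%, against 41.7% of all). Chosen from the third libraries alone, 29 transcripts met the rule, and in libraries 1 and 2 25 of these were lower in H2L (86.2%, against 49.6%) and 24 higher in L2H (82.8%, against 55.5%). Leaving out L2H 0h library 3 alone gave 85 members, all 31 among them, while leaving out any other 1 library at 0h or 24h gave 24 to 34. Of the 31, 9 were chosen in all 12 such repeats, and c12563_g1_i2, named after its values were seen, was chosen in only 6.

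Members seldom shared the first part of their identifier, which marks assembled sequences that can share reads. The 31 had 29 such parts, and only c45525 held more than 1, with all 3 of its transcripts in the set. The H2L libraries of c45525_g1_i2 gave 24.97, 27.25 and 18.9 at 0h, 10.8, 12.6 and 10.4 at 4h, and 4.35, 4.36 and 3.24 at 24h, and its L2H libraries gave 2.47, 2.16 and 6.67, then 9.28, 8.13 and 6.33, then 11.2, 12.9 and 9.88. The 3 times did not overlap in H2L, while in L2H the 0h and 4h libraries overlapped through the third at 0h. The transcripts c45525_g2_i2 and c45525_g3_i1 had L2H shares at 4h of 1.06 and 0.68 beside 0.68 for c45525_g1_i2, and H2L shares of 0.20, 0.39 and 0.43 in the order g2, g3 and g1. Because reads may be divided among the 3, they cannot be counted as separate cases.

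A further 38 transcripts share a first part with 8 members without being members, 36 of them tested. Of those 36, 7 were at least 2-fold lower in H2L at 24h than at 0h, 4 were at least 2-fold higher in L2H at 24h than at 0h, and 0 were both. Around c43486_g1_i1, 5 such transcripts were at least 2-fold lower in H2L at 24h than at 0h, the largest ratio being 10.5 for c43486_g6_i1, and the L2H ratio of 24h over 0h in these 5 lay between 0.93 and 1.35. The transcript c46349_g2_i1 averaged 307 in L2H at 24h, against 70.4 in L2H at 0h, but its H2L ratio of 0h over 24h was 1.73, under the limit. These 2 transcripts were named after their values were seen. The most abundant members after c24086_g1_i1, whose mean over 18 libraries was 83.9, were c20919_g1_i1 (39.1), c46349_g1_i2 (32.6), c41218_g1_i2 (23.7) and c10031_g1_i1 (18.7).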

How the data were processed

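RNA of 18 libraries was sequenced, and the deposited table holds 1 value per transcript and library: a signal, here an abundance scaled for length and depth by the authors, without a statement of FPKM or TPM. The submitters' processing notes name FastQC, Bowtie2 and RSEM with no versions. The assembly and annotation are not given in the sources used here. Read depth is unknown, so no counting intervals are given. All 18 value columns matched a library title, and 0 belonged to no sample.

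The members were found from group means as stated in the report. Differences were taken on log2(value + 1), so folds of low transcripts are understated. Limma 3.58.1 (R 4.3.3) was fitted to the 6 groups over all 18 libraries with a mean-variance trend, on the 34166 transcripts that reached 1 in 3 or more libraries. P-values were adjusted over all of them by Benjamini-Hochberg, and a call needs an adjusted p under 0.05. The fit was checked on simulated data with independent noise per library, for H2L at 4h against L2H at 4h. Changes were set in 200 transcripts with a mean log2 over 3. Limma recovered 68.7% of the 2-fold changes, and 5.72% of its calls were false. The check does not cover libraries that are not independent, nor recovery at lower levels. The share at 4h is the change between 0h and 4h over that between 0h and 24h.

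Transcripts were named by a rule: the 8 with the largest smaller ratio, 3 just inside and 3 just outside the limit, the 4 largest differences each way among the calls at 4h between arms, the 3 highest and 3 lowest shares among members changing at least 4-fold, the 3 largest gaps per end, the 5 most abundant, and members sharing a first part. The members and lists were chosen with earlier results of these data known. The division of members by how they met the floor was made after seeing the values. Alternatives changed the scaling, pseudocount, filter, trend, samples in the fit, library block and limits of the rule, averaged libraries 1 and 2, used libraries 1 and 2 only, and left out each library in turn. Choosing the members without library 3 of L2H at both 0h and 4h was an alternative added after seeing the data.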

Additional observations from a re-analysis of the deposited data

Results flagged for a closer look

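For 10 members, of which those outside the naming rule are listed for this test alone, the change between 0h and 4h differed between the arms by limma's interaction test at an adjusted p under 0.05. The H2L change minus the L2H change, on the log2 scale, was -3.00 for c20310_g1_i2, -2.59 for c50297_g4_i1, -2.01 for c45525_g1_i2, -0.92 for c39898_g1_i4 and -1.53 for c43486_g1_i1. It was -1.48 for c45525_g2_i2, -2.35 for c46908_g4_i1, -1.95 for c60691_g1_i1, -2.74 for c40367_g1_i1 and -2.51 for c46349_g1_i2. The adjusted p-values lay between 0.00352 and 0.0431. The 0h libraries are those by which the members were chosen, with a high H2L start and a low L2H start. Since the rule asked for a fall in H2L and a rise in L2H, it favours values below 0. The calls are therefore a description, and nothing is read from their sign. The calls of c20310_g1_i2, c50297_g4_i1, c45525_g1_i2 and c40367_g1_i1 were lost only with libraries 1 and 2 averaged (adjusted p = 0.2, 0.193, 0.208 and 0.198). Those of c46349_g1_i2, c45525_g2_i2 and c60691_g1_i1 were lost in 18, 17 and 15 of 29 alternatives. Those of c39898_g1_i4, c43486_g1_i1 and c46908_g4_i1 were lost in 9 each.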

How the results depend on the processing

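No result changed direction under the alternatives below, although with libraries set against each other by number the median H2L end minus L2H start was -0.10 in library 3, against 0.71 over all. The number of members, 31, was 159 at 1.5-fold, 2 at 3-fold, 44 and 12 with the floor at 6 and 21, and 70 from group medians. With upper-quartile scaling it was 21, all of them among the 31. It was 84 from libraries 1 and 2 only, and 49 and 3 with pseudocounts of 0.1 and 5. Without library 3 of L2H at both 0h and 4h it was 85, and with any 1 library left out it was 24 to 85. The counts of members called by limma moved as follows. With libraries 1 and 2 averaged, 0 were called lower in H2L at 4h than in L2H at 4h (2 at an unadjusted p under 0.05), 0 lower and 0 higher in H2L at 4h than at 0h (4 and 1 at an unadjusted p under 0.05), 6 lower in H2L at 24h than at 4h, 0 and 1 higher in L2H at 4h than at 0h and at 24h than at 4h, 2 at the H2L end, 4 at the L2H end and 0 for the first-step difference (9 at an unadjusted p under 0.05). With libraries 1 and 2 only, the counts were 6 (H2L lower than L2H at 4h), 13 (H2L lower at 4h) and 18 (first step). In L2H 15 were higher at 4h than at 0h, and 12 were higher and 3 lower at 24h than at 4h. The counts at the H2L and L2H ends were 22 and 21. With a pseudocount of 0.1 the counts were 1 (H2L lower than L2H at 4h), 2 (H2L lower at 4h) and 6 (first step). With a pseudocount of 5 the count was 3 (L2H higher at 24h than at 4h). Without the trend 1 was called lower in H2L than in L2H at 4h. With a fit of those groups alone, 0 were called higher in H2L at 4h than at 0h, 1 higher in L2H at 24h than at 4h and 3 at the H2L end. For L2H at 4h against 0h the count was 15 without library 3 of L2H at 0h and 4h, 2 without the filter, 0 without the trend (15 at an unadjusted p under 0.05) and 0 with only the groups compared (16). The cause of these changes was not tested.

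With any 1 library left out, the counts were 14 to 17 higher and 1 to 3 lower in H2L than in L2H at 4h, 1 to 6 lower and 0 to 1 higher in H2L at 4h than at 0h, 11 to 21 lower in H2L at 24h than at 4h, 0 to 14 and 3 to 7 higher in L2H at 4h than at 0h and at 24h than at 4h, 5 to 11 at the H2L end, 10 to 15 at the L2H end and 4 to 13 for the first step. Libraries of the same number correlated in their deviations from the group means at -0.182 to 0.259, over 0.1 in 7 of 27 pairs, 3 of them those of library 3 in H2L (0.234 to 0.259), so the numbers were not taken to pair the libraries as a whole. Some same-numbered libraries also share a title tag, whose meaning is not given. Within arms 25 of 36 comparisons had the own number as the best match, a hint from the data. With the number as a replicate block, the count for L2H at 4h against 0h was 0 (18 at an unadjusted p under 0.05), 2 members were called lower at the H2L end and 2 higher at the L2H end (0 each without the block), and no other count moved by over 1.5 times. Unknown read depth limits what can be said of values near 0.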
